A study of Mus musculus with 18 samples.

Results

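The interferon regulatory factor (IRF) genes were followed through 3 progenitor populations of mouse bone marrow. The family was taken as the rows whose symbol was Irf1, Irf2, Irf3, Irf4, Irf5, Irf7, Irf8 or Irf9, 8 of the 18169 genes listed for all 3 populations, and all 8 were listed in every table and passed the filter on low values in every comparison. Multipotent progenitors (MPPs), CD115- common dendritic cell progenitors (CD115- CDPs) and common lymphoid progenitors (CLPs) had been sorted from C57BL/6 mice aged 6 to 8 weeks. All were FLT3+ and lacked lineage markers; MPPs were gated as CD34+ with Sca-1 and CD117, CLPs as CD127+ with Sca-1 and CD117 and without CD11c, and CD115- CDPs as CD117int without CD11c, CD127 or CD115. WT libraries came from Trim33fl/fl mice, and KO libraries came from Trim33fl/fl Cre-ERT2 mice. Both genotypes carried the floxed allele and received tamoxifen, 2 mg by intraperitoneal injection on 5 consecutive days, and were analysed 7 days later. Cre-ERT2 is active in all tissues, so deletion was not restricted to the sorted cells. Each population had 3 WT and 3 KO libraries, described as biological repeats and 18 in total, and levels are in FPKM (fragments scaled by transcript length and by the mapped reads of the library), which can be compared between genes because of the length scaling.

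IRF proteins share a DNA-binding domain that reads GAAA repeats, the core of the interferon-stimulated response element (ISRE). IRF3, IRF7 and IRF5 lie downstream of pattern recognition receptors and switch on interferon genes, IRF9 is the DNA-binding part of the ISGF3 complex that answers type I interferon, IRF1 is an activator induced by interferon and IRF2 binds the same sites and can repress them. IRF8 and IRF4 are the lineage factors of the family: they bind DNA with partners such as PU.1, SPIB and BATF proteins. IRF8 is required for type 1 conventional dendritic cells and for monocyte identity. Whether plasmacytoid dendritic cells (pDCs) need it is debated, according to the study.

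The genes lie apart in the mouse genome (GRCm38.p6, RefSeq). Irf8 is at chr8:120736358-120756694 and Irf2 at chr8:46739745-46847458, both on the plus strand. Irf1 is at chr11:53770014-53778374, Irf4 at chr13:30749233-30766981, Irf5 at chr6:29526130-29541869 and Irf9 at chr14:55603985-55610030, all on the plus strand. Irf3, at chr7:44997648-45002848 on the plus strand, and Irf7, at chr7:141263183-141266499 on the minus strand, share a chromosome.

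The sequences upstream of 4 members are shown because they differ in matches to motifs that STAT and IRF proteins can bind. Binding and activity at these matches were not tested. The motifs searched, on both strands of the 250 bases before each RefSeq start, were 3: the ISRE core, which is GAAA repeated after any 2 bases, the STAT-binding GAS element TTCNNNGAA, which reads the same on both strands, and GAGGAAGT, an ETS site of the kind PU.1 binds. No match of one motif overlapped a match of another. All 8 members had a window, and with alternative starts there were 11. GAS matched 3 of these 11 windows against 7.02% of all 32851 promoter windows, ISRE matched 1 of 11 against 2.98%, and GAGGAAGT matched 0 of 11 against 2.44%. The letters in capitals mark the matches. Each stretch ends before the first annotated base of its gene.
Irf8, chr8:120736108-120736357, plus strand: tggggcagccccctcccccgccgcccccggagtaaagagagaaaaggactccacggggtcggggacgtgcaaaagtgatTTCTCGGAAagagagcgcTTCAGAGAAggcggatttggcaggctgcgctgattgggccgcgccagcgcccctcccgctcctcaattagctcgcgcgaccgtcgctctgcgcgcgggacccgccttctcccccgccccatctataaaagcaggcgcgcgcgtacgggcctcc
Irf1, chr11:53769764-53770013, plus strand: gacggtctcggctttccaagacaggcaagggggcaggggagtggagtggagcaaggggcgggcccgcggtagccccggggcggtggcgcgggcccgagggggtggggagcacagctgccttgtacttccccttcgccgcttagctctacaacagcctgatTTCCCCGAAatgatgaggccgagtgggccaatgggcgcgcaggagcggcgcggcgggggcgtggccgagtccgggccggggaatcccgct
Irf2, chr8:46739495-46739731, plus strand: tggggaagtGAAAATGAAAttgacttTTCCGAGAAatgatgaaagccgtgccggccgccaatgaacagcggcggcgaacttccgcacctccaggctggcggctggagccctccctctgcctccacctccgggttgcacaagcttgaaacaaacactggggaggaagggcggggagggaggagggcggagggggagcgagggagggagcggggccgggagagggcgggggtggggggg
Irf7, chr7:141266500-141266674, minus strand: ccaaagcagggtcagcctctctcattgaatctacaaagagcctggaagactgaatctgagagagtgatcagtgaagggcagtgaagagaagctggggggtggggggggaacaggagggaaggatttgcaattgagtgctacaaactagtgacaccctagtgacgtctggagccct
Irf8 held a pair of GAS matches, at 171 and 153 bases before its start, and Irf1 held 1 at 90 bases. Irf2 held an ISRE match and a GAS match at the far end of its window, at 241 and 224 bases, where an exon of the non-coding antisense gene Gm16675 also lies. The Irf7 stretch held none of the 3 motifs.

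Trim33, the targeted gene, was measured first. In MPPs it lay between 8.78 and 10.4 FPKM in WT and between 4.8 and 11.7 in KO libraries, in CD115- CDPs between 8.27 and 15.2 and between 4.03 and 9.64, and in CLPs between 7.01 and 12.4 and between 5.60 and 7.66. The genotypes overlapped in all 3 populations, and no difference passed limma's moderated test with Benjamini-Hochberg adjustment (adjusted p = 0.630, 0.528 and 0.255). A fit blocked on replicate number gave an adjusted p of 0.0258 in CD115- CDPs. A value for the whole gene does not test the deleted exons, since reads from the remaining exons still count, so the KO libraries are called KO-labelled here. Il7r, which encodes CD127, stood at 32.6 to 63.0 FPKM over the 6 CLP libraries, above every library of the other populations. Csf1r, which encodes CD115, was present in CD115- CDPs at 39.1 to 137 FPKM in WT and 9.24 to 37.2 in KO-labelled libraries, and Itgax, which encodes CD11c, stood at 54.8 to 69.7 in WT and 5.36 to 7.47 in KO-labelled CLPs, although those gates were set against these surface proteins. Among the MPP gate genes, Kit, which encodes CD117, stood at 71.6 to 74.8 FPKM in WT and 29.9 to 49.9 in KO-labelled MPPs. Ly6a, which encodes Sca-1, stood at 59.3 to 76.4 and 33.9 to 43.1. Flt3 and Cd34 overlapped between genotypes in MPPs. In CLPs Kit was higher in KO-labelled libraries, at 18.6 to 22.4 against 11.5 to 13.8 in WT. The files hold no counts, so depth is not known directly. Less RNA per cell and fewer cells of a kind within a sort cannot be told apart in these bulk samples.

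Irf8 and Irf1 had the highest mean levels of the family in each WT population, and the levels of Irf8 separated the populations. Irf8 was at 79.4, 73.6 and 77.2 FPKM in WT MPPs, at 477, 236 and 831 in WT CD115- CDPs and at 1097, 1132 and 992 in WT CLPs. Every WT CLP library was thus above every WT CD115- CDP library, and these were all above the WT MPPs. By its mean Irf8 ranked 984th of 18169 genes in WT MPPs, 144th in WT CD115- CDPs and 73rd in WT CLPs. On the log2(FPKM + 1) scale the step from MPPs to CLPs was 3.79 (SE 0.468, limma adjusted p = 2.76e-05) and that from MPPs to CD115- CDPs 2.55 (SE 0.468, adjusted p = 0.00119), and both were called at an adjusted p up to 0.05 together with a log2 difference of 1 or more in either direction. The step from CLPs to CD115- CDPs, -1.24, did not pass (SE 0.468, adjusted p = 0.101). It passed without CD115- CDP WT replicate 3 (-1.67, adjusted p = 0.0269). Each population has its own table, so a difference between populations and a difference between tables cannot be told apart in these levels.

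Irf7, the amplifier of the type I interferon response, took a different order, with CD115- CDPs lowest. It was at 29.3, 26.7 and 33.0 FPKM in WT MPPs, at 14.3, 8.03 and 23.8 in WT CD115- CDPs and at 38.6, 31.3 and 38.1 in WT CLPs. All CD115- CDP libraries lay under both other populations. Irf7 was called lower in CD115- CDPs than in CLPs (log2 difference -1.29, SE 0.266, limma adjusted p = 0.00723) and than in MPPs (-1.02, SE 0.266, adjusted p = 0.0134), while MPPs and CLPs did not pass (0.27, adjusted p = 0.508). Both calls leaned on CD115- CDP WT replicate 2: without it the differences were -0.92 from CLPs and -0.65 from MPPs. The call against MPPs was also lost without MPP WT replicate 3 (-0.94, adjusted p = 0.0591) and with median ratio scaling (-0.90).

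Irf2 passed the adjusted p without reaching the minimum fold: its log2 difference was -0.97 between WT CD115- CDPs and WT MPPs (SE 0.181, limma adjusted p = 0.00131) and -0.61 between WT CD115- CDPs and WT CLPs (SE 0.181, adjusted p = 0.0443), where 15.4% and 7.53% of genes passed the adjusted p alone as lower. Without CD115- CDP WT replicate 3 the first difference was -1.08 (adjusted p = 0.00103), past the fold. Irf1 had close means across the WT populations, at a mean of 101 ± 6.61 FPKM (SD, n = 3) for MPPs, 105 ± 47.2 for CD115- CDPs, then 107 ± 22.0 for CLPs. Irf3, Irf5 and Irf9 passed in none of the 3 comparisons, with adjusted p from 0.0628, for Irf5 in CD115- CDPs against MPPs, to 0.706. Irf4 had the lowest WT mean of the family in each population, at 2 ± 0.927 FPKM for MPPs, 15.3 ± 12.4 for CD115- CDPs, then 9.45 ± 2.91 for CLPs. Its largest WT step, 2.11 from MPPs to CD115- CDPs, had an SE of 0.999 and did not pass (limma adjusted p = 0.146). It passed without replicate 3 of either CD115- CDP group, at 2.88 without the WT library (adjusted p = 0.0461) and 2.11 without the KO one (adjusted p = 0.0419). Of the 8 members, 1 was called higher in WT CLPs than in WT MPPs, where 3.86% of the 12421 genes tested were (4.84% were called lower), and 1 was called higher and 1 lower in WT CD115- CDPs than in WT MPPs, where 1.76% and 5.03% were. Against CLPs, 1 member was called lower in CD115- CDPs, where 2.2% of genes were (0.741% were called higher).

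**Figure D1:**
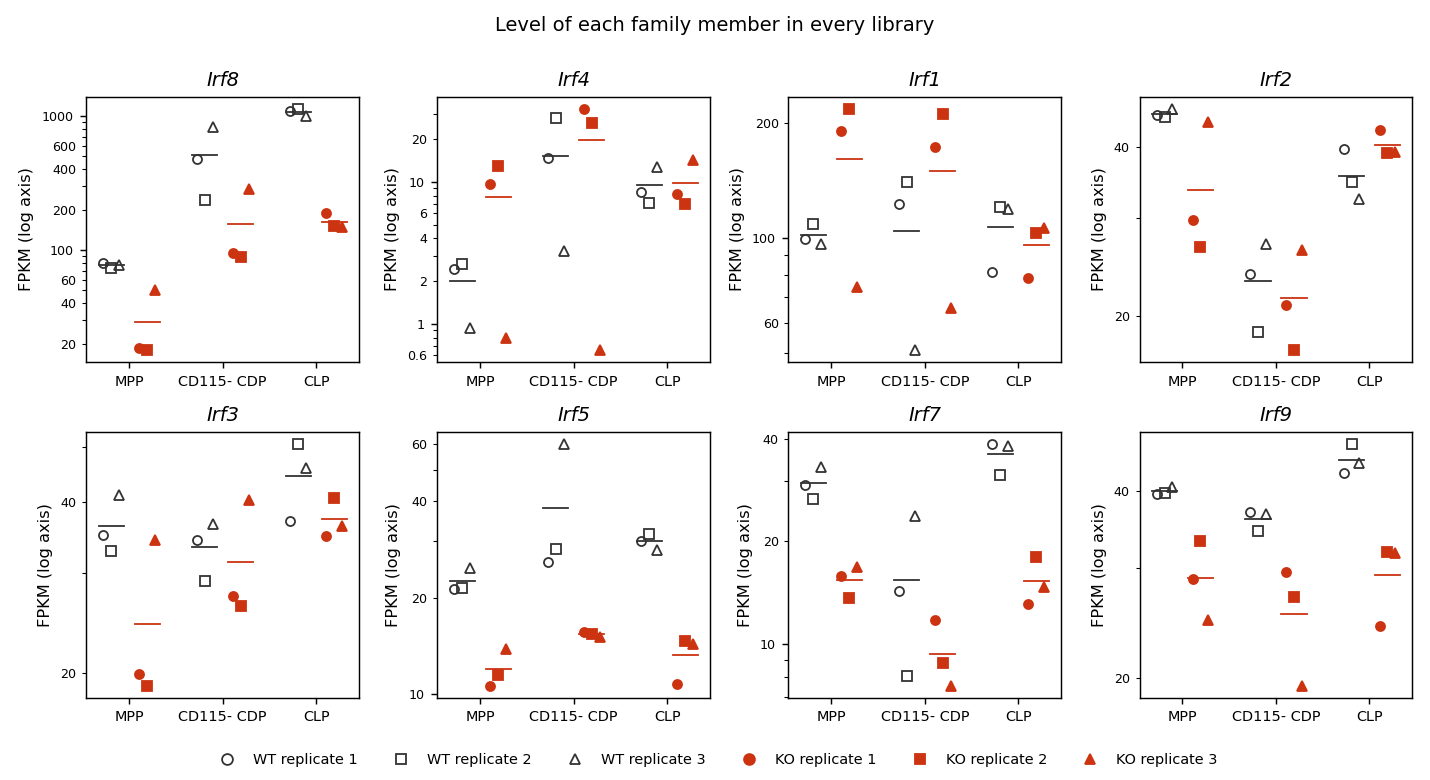
Level of each family member (FPKM, log axis with its own range in each panel) in the 18 libraries; open black symbols are WT, filled red symbols KO-labelled, the shape gives the replicate number and the short lines are group means. Irf8 climbed from 73.6 to 79.4 FPKM in WT MPPs to 992 to 1132 in WT CLPs, and Irf5 was lower in every KO-labelled library than in every WT library of the same population.

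Irf8 showed the largest difference between genotypes in CLPs. KO-labelled CLPs held 190, 151 and 147 FPKM against 1097, 1132 and 992 in WT CLPs, a mean 6.61 times lower, and the groups were far apart with little spread inside either. The log2 difference was -2.72 (SE 0.130, limma adjusted p = 6.26e-06), and over 16 alternative settings it stayed between -2.84 and -2.66 with adjusted p of at most 0.000908. KO-labelled CLPs (147 to 190) thereby came to lie inside the range of KO-labelled CD115- CDPs (89.1 to 282). Irf8 was still the most abundant member in KO-labelled CLPs.

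Irf7 and Irf5, which both answer Toll-like receptors through MyD88, fell in CLPs as well. Irf7 was at 38.6, 31.3 and 38.1 FPKM in WT and at 13.1, 17.9 and 14.7 in KO-labelled CLPs (log2 difference -1.19, SE 0.138, limma adjusted p = 0.000852). Irf5 was at 30.1, 31.5 and 28.1 against 10.7, 14.7 and 14.4 (-1.13, SE 0.132, adjusted p = 0.000876), and without CLP KO replicate 1 its difference was -0.99, just under the minimum fold. Neither gene's groups overlapped. Irf9 was at 42.6, 47.5 and 44.3 FPKM in WT and at 24.2, 31.9 and 31.7 in KO-labelled CLPs, again without overlap, and passed the adjusted p but not the minimum fold (-0.61, SE 0.125, adjusted p = 0.0142).

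The other 4 members overlapped between genotypes in CLPs. Irf3, the sensor-activated factor present in most cells, gave a log2 difference of -0.24 (SE 0.131, limma adjusted p = 0.263), Irf1 one of -0.15 (SE 0.178, adjusted p = 0.635), Irf2 one of 0.18 (SE 0.107, adjusted p = 0.300) and Irf4 one of 0.03 (SE 0.267, adjusted p = 0.950). Irf4 was at 8.51, 7.12 and 12.7 FPKM in WT and at 8.26, 7.02 and 14.3 in KO-labelled CLPs, so that Irf4 overlapped between genotypes where Irf8 did not. In all, 3 of 8 members were called lower in KO-labelled CLPs and 0 higher, where 2.84% and 0.673% of the 12339 genes tested were. At an unadjusted p under 0.05 there were 4 lower and 0 higher, against 16.2% of all genes lower. The groups did not overlap, with KO-labelled lower, for 4 members, against 18.6% of genes (15.3% in the other direction). The adjusted p alone was passed by 4 members as lower and 0 as higher, against 8.92% and 5.41% of genes. The median log2 difference was -0.42 over the 8 members and 0.01 over all genes tested.

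Markers of pDCs, monocytes and erythroid cells were lower together with Irf8 in KO-labelled CLPs. The summed level of 7 pDC markers (Siglech, Ccr9, Bst2, Ly6d, Cox6a2, Klk1 and Cd209d) was 1775 to 2183 FPKM in WT and 439 to 488 in KO-labelled CLPs, with 7 of 7 genes lower without overlap and Klk1 and Cd209d at 0 in all KO-labelled CLPs. For 6 monocyte and macrophage markers the sums were 272 to 315 and 41.4 to 62.8 FPKM, and 6 of 6 were lower without overlap. For 7 erythroid genes they were 33.9 to 56.3 and 5.38 to 9.42 FPKM, with 7 of 7 lower without overlap. Summed B lineage markers overlapped between genotypes, at 269.9 to 778 and 223 to 513 FPKM, and 1 of the 7 genes, Ebf1, was higher without overlap, at 12.1 to 16.7 in WT and 17.7 to 26.8 in KO-labelled CLPs. Summed T and NK markers went the other way, at 20.5 to 36.1 FPKM in WT and 67.45 to 82.1 in KO-labelled CLPs. Nkg7 supplied most of that sum. Of these 5 genes, 1 was higher and 1 lower without overlap. The neutrophil sum was 393 to 971 FPKM in WT and 225 to 389 in KO-labelled CLPs. Of its 8 genes 0 were lower and 1, Mpo, was higher without overlap. Gp9 was the 1 of 4 megakaryocyte genes higher without overlap. Over all genes tested in CLPs, 18.6% were lower and 15.3% higher without overlap. The part of these marker differences in the Irf8, Irf7 and Irf5 values was not tested.

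**Figure D2:**
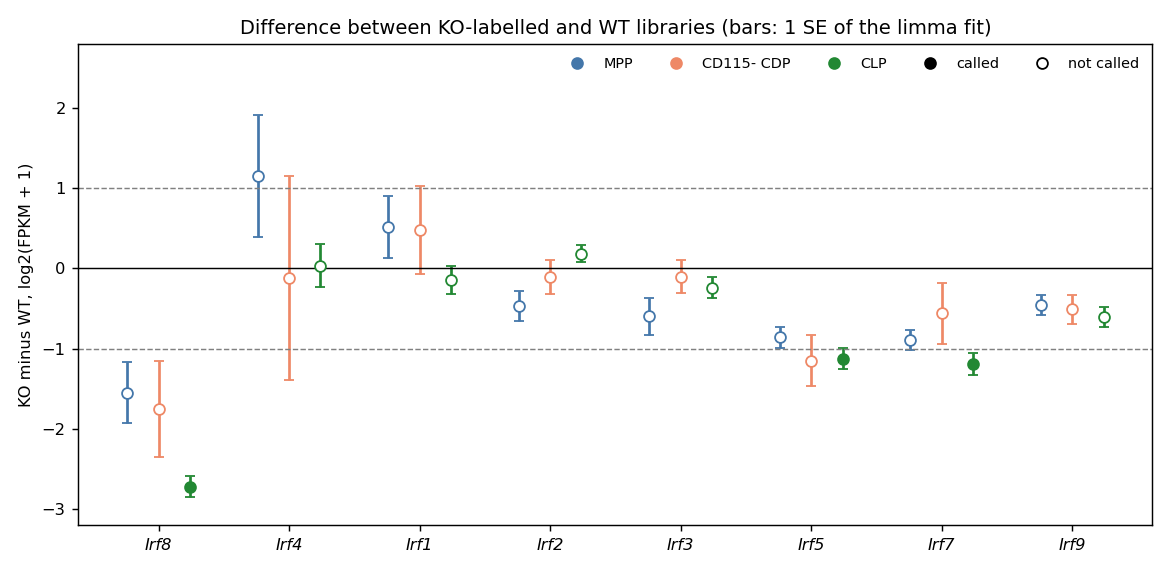
Difference between KO-labelled and WT libraries for each member in log2(FPKM + 1) with 1 SE of the limma fit, in MPPs, CD115- CDPs and CLPs (3 libraries a group); filled points were called, and dashed lines mark the minimum log2 fold change of 1. Irf8 lay below -1 in all 3 populations, at -1.55, -1.75 and -2.72, and was called in CLPs, while Irf4 carried the widest bar in each population, with an SE of 0.759, 1.27 and 0.267.

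In MPPs Irf7 and Irf5 were lower in KO-labelled libraries by nearly the minimum fold. Irf7 was at 29.3, 26.7 and 33.0 FPKM in WT and at 15.8, 13.7 and 16.9 in KO-labelled MPPs (log2 difference -0.90, SE 0.127, limma adjusted p = 0.0190). Irf5 was at 21.3, 21.4 and 24.7 against 10.6, 11.4 and 13.8 (-0.86, SE 0.132, adjusted p = 0.0246). Both passed the adjusted p and neither the fold, where 3.52% of the 12372 genes tested passed the adjusted p alone as lower and 0.315% as higher. Irf9 was at 39.5, 39.6 and 40.5 FPKM in WT and at 28.9, 33.2 and 24.7 in KO-labelled MPPs, which did not overlap (-0.46, SE 0.121, adjusted p = 0.0933).

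Irf8 in MPPs turned on a single library. WT MPPs held 79.4, 73.6 and 77.2 FPKM, KO-labelled replicates 1 and 2 held 18.4 and 17.8, and KO-labelled replicate 3 held 50.4. The groups did not overlap, but the spread within the KO-labelled group kept the difference from passing (-1.55, SE 0.377, limma adjusted p = 0.0774). Without KO replicate 3 it was -2.02 (adjusted p = 8.24e-05) and was called. Irf4 and Irf1 split the same 3 libraries the other way. Irf4 was at 2.43, 2.64 and 0.94 FPKM in WT MPPs and at 9.71, 12.9 and 0.8 in KO-labelled MPPs (1.16, SE 0.759, adjusted p = 0.356), and without KO replicate 3 its difference was 2.08 (adjusted p = 0.00244). Irf1 was at 99.4, 109 and 96.2 FPKM in WT and at 190, 217 and 74.4 in KO-labelled MPPs (0.52, SE 0.381, adjusted p = 0.402), and without KO replicate 3 its difference was 0.996 (adjusted p = 0.00106). Irf2 and Irf3 followed Irf8: Irf2 was at 29.7, 26.6 and 44.4 FPKM in KO-labelled MPPs against 45.3 to 46.9 in WT, and Irf3 at 19.9, 19.0 and 34.3 against 32.8 to 41.2 (adjusted p = 0.186 and 0.183).

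Thus 0 of 8 members were called in either direction by limma in MPPs, where 1.32% of genes were called lower and 0.162% higher. At an unadjusted p under 0.05, 6 members were lower and 0 higher, against 19.8% of all genes lower. The groups did not overlap, with KO-labelled lower, for 5 members (Irf2, Irf5, Irf7, Irf8 and Irf9), against 23.3% of genes (6.98% in the other direction), and the median log2 difference was -0.54 over the members and -0.11 over all genes tested. Summed erythroid, monocyte, basophil, neutrophil, B lineage and megakaryocyte markers were also lower in KO-labelled MPPs, with summed levels of 356 to 386 against 31.9 to 57.4 FPKM for 7 erythroid, 147 to 159 against 55.4 to 82.0 for 6 monocyte, 191 to 215 against 63.0 to 102.2 for 5 basophil and mast cell and 3369 to 3501 against 1490 to 2472 for 8 neutrophil genes. The sums were 49.1 to 55.4 against 15.9 to 30.8 FPKM for 7 B lineage genes and 19.7 to 22.5 against 8.32 to 10.8 for 4 megakaryocyte genes. Lower without overlap were 6 of 7 erythroid, 6 of 6 monocyte, 5 of 5 basophil and mast cell and 6 of 8 neutrophil genes. So were 6 of 7 B lineage and 3 of 4 megakaryocyte genes. Hbb-bt, Elane, Prtn3, Ebf1 and Gp9 overlapped between genotypes. Hbb-bt, at 31.4, 46.4 and 49.1 FPKM, supplied most of the erythroid sum in KO-labelled MPPs. The part of these markers in the family's values was not tested.

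In CD115- CDPs Irf8 was lower in the KO-labelled library of every replicate number, and its replicates spread widely. It was at 477, 236 and 831 FPKM in WT and at 95.0, 89.1 and 282 in KO-labelled replicates 1, 2 and 3. The groups overlapped, as KO-labelled replicate 3 exceeded WT replicate 2, and the unblocked difference did not pass (-1.75, SE 0.594, limma adjusted p = 0.408). Within each replicate number, however, the KO-labelled library was lower, with KO to WT ratios of 0.199, 0.378 and 0.340, and blocked on that number Irf8 was called (SE 0.178, adjusted p = 0.00780). Irf5 was at 25.8, 28.4 and 60.1 FPKM in WT and at 15.7, 15.4 and 15.0 in KO-labelled CD115- CDPs, which did not overlap (-1.15, SE 0.320, adjusted p = 0.355; with the block adjusted p = 0.0392, called, but not when median ratio scaling was added to the block). Without the replicates numbered 3 its difference was -0.76 (adjusted p = 0.0332), below the minimum fold. Irf9 was at 37.0, 34.4 and 36.7 against 29.6, 27.0 and 19.4 FPKM, also without overlap (-0.51, SE 0.186, adjusted p = 0.426; with the block 0.0683).

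Irf1 was the only member whose blocked difference in CD115- CDPs passed in the upward direction. It was at 123, 140 and 50.9 FPKM in WT and at 172, 210 and 65.6 in KO-labelled replicates 1, 2 and 3, with ratios of 1.41, 1.502 and 1.29 (log2 difference 0.48; SE 0.545 and adjusted p = 0.825 without the block, SE 0.0899 and adjusted p = 0.0323 with it, below the minimum fold). Irf4 had no common direction within numbers: it was at 14.7, 28.0 and 3.27 FPKM in WT and at 32.7, 26.0 and 0.650 in KO-labelled CD115- CDPs (-0.12, SE 1.27, adjusted p = 0.990). Irf7 was at 14.3, 8.03 and 23.8 against 11.7, 8.78 and 7.54 FPKM (-0.56, SE 0.381, adjusted p = 0.659). Irf2 and Irf3 differed by -0.10 and -0.11 (adjusted p = 0.915 and 0.906).

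In CD115- CDPs 0 of 8 members were called by limma without the block, where 0.0654% of the 12229 genes tested were called lower and 0.0409% higher, and 3 were lower at an unadjusted p under 0.05, against 5.99% of all genes. With the block 2 of 8 were called lower and 0 higher, where 1.46% and 0.376% of genes were. The adjusted p alone was passed with the block by 2 members as lower and 1 as higher, against 5.56% and 3.78% of genes. Irf5 and Irf9 did not overlap, with KO-labelled lower, as did 10.6% of genes (7.68% in the other direction).

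Whether the genotype difference of a member depended on the population was tested in a fit over all 18 libraries. Irf8 differed by 1.18 log2 units more in CLPs than in MPPs (SE 0.662), and its interaction did not pass (limma adjusted p = 0.524). None of the 8 members passed, with adjusted p of at least 0.355, against 2.45% of genes, and 0 members had an unadjusted p under 0.05. This depended on the fit. Blocked on replicate number, Irf2, Irf8 and Irf3 had unadjusted limma p of 0.00897, 0.0179 and 0.0462. Their adjusted p were 0.0686, 0.0926 and 0.145, in a fit where 1077 genes passed. The single contrast of Irf2 between CLPs and MPPs (0.66) had a limma adjusted p of 0.0300 with the block and 0.175 without it. The block of this fit also pairs the MPP libraries, which their numbers did not pair. Without the replicates numbered 3, the interaction of Irf1, Irf2 and Irf4 passed (limma adjusted p = 0.0478, 0.0433 and 0.0205). In that fit 1917 genes passed in all, against 304 with every library. That of Irf8 passed in neither fit.

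The replicate number 3 marked a shared pattern in the family. In both CD115- CDP groups and in KO-labelled MPPs, replicate 3 was the library with the lowest Irf1 and Irf4 and the highest Irf8, Irf2 and Irf3. Irf4 in replicate 3 deviated from its group mean by -1.55 in WT CD115- CDPs, -2.8 in KO-labelled CD115- CDPs and -1.84 in KO-labelled MPPs, in log2(FPKM + 1). Irf1 deviated by -0.90, -1.02 and -0.96 and Irf8 by 0.87, 1.07 and 0.95 in the same 3 libraries. WT MPPs had Irf4 lowest in replicate 3 too, at a deviation of -0.58, but the same library deviated by -0.07 for Irf1 and 0.01 for Irf8. CLP replicates showed the opposite for Irf4, with replicate 3 highest in both genotypes. The ratio of Irf8 to Irf4 FPKM accordingly ran from 2.90 and 3.42 in KO-labelled CD115- CDP replicates 1 and 2 to 434 in replicate 3, and from 1.89 and 1.38 in KO-labelled MPP replicates 1 and 2 to 62.95 in replicate 3. In CLPs it lay between 78.0 and 159 in WT and between 10.3 and 22.9 in KO-labelled libraries, which did not overlap.

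**Figure D3:**
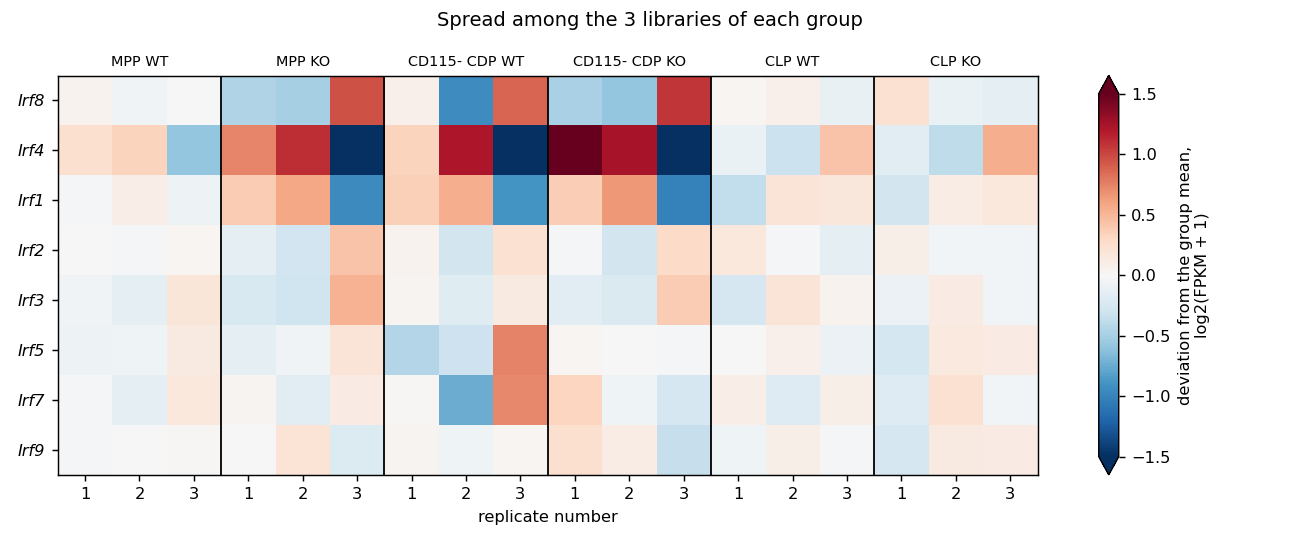
Deviation of each member from the mean of its group in log2(FPKM + 1), one column per library with its replicate number, red above and blue below the mean; the colour scale ends at 1.5 in both directions. Replicate 3 of KO-labelled MPPs and of both CD115- CDP groups is blue for Irf4 and Irf1 and red for Irf8, while the CLP libraries stayed closer to their group means for these genes, between -0.38 and 0.55.

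Summed markers of other cells differed by replicate number in CD115- CDPs, some higher and some lower in replicate 3. The 6 monocyte and macrophage markers summed to 391, 255 and 1606 FPKM in WT replicates 1, 2 and 3 and to 91.8, 85.4 and 318 in KO-labelled ones, and the 8 neutrophil markers to 628, 701 and 4180 and to 988, 742 and 3940. The pDC sums were lowest there, at 973, 795 and 477 in WT and 456, 563 and 222 in KO-labelled replicates 1, 2 and 3, as were the B lineage sums, at 66.3, 116 and 45.5 and at 187, 126 and 35.4. In KO-labelled MPPs the monocyte sum was 82.0, 55.4 and 57.4 FPKM, and the conventional dendritic cell sum was lowest in replicate 3, at 296, 439 and 144. In CD115- CDPs the conventional dendritic cell sum went opposite ways. It was highest in WT replicate 3, at 223, 260 and 435, and lowest in KO-labelled replicate 3, at 255, 388.5 and 92.6. What the replicate number stands for is not given in the sources used here, and the part of these markers in the family's values was not tested.

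Both the total and the make-up of the family were read from summed levels. The 8 genes summed to 354 ± 5.32 FPKM (SD, n = 3) in WT MPPs and 312 ± 47.2 in KO-labelled MPPs, to 780 ± 275 and 428 ± 26.6 in CD115- CDPs, and to 1381 ± 71.3 and 404 ± 1.46 in CLPs. Without Irf8 the sums were 278 ± 5.46 and 283 ± 65.2 for MPPs, 266 ± 24.8 and 272 ± 84.9 for CD115- CDPs, then 307 ± 25.1 and 241 ± 24.9 for CLPs. Irf8 supplied 77.7% ± 2.10 of the total in WT CLPs and 40.3% ± 5.99 in KO-labelled CLPs, and Irf1 supplied 7.75% ± 1.63 and 23.8% ± 3.70 of it. A share moves with the other members as well as with its own gene, and the FPKM of Irf1 in CLPs overlapped between genotypes. In KO-labelled MPPs Irf1 made up 28.6% to 61.7% of the total and Irf8 5.05% to 19.4%, against 26.7% to 31.0% and 21.0% to 22.6% in WT.

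**Figure D4:**
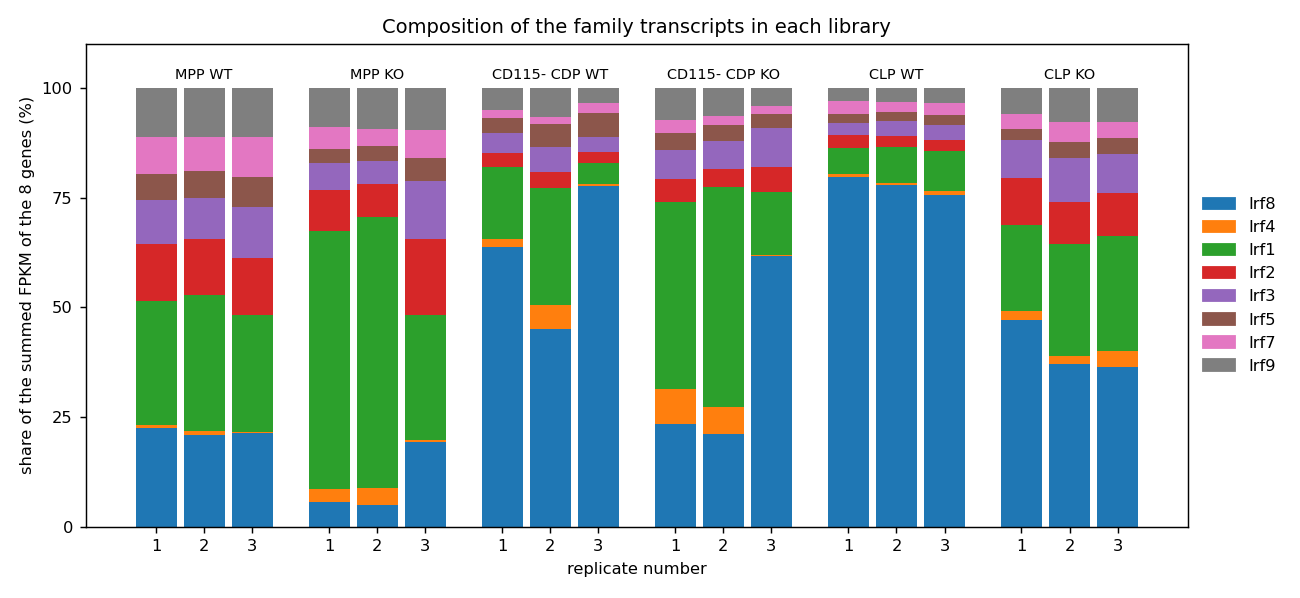
Share of each member in the summed FPKM of the 8 genes (%), one bar per library, grouped by population and genotype with the replicate number below. Irf8 made up 75.6% to 79.8% of the sum in WT CLPs and 36.4% to 47.1% in KO-labelled CLPs.

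Genes that work with the family were read from fixed lists. Stat2, which encodes a partner of IRF9 in ISGF3, was called lower in CLPs, at 22.8 to 27.8 FPKM in WT and 10.1 to 10.7 in KO-labelled libraries (log2 difference -1.23, SE 0.112, limma adjusted p = 0.000206). Jak2, a kinase of interferon receptors, was not called in CD115- CDPs (-0.85, adjusted p = 0.243). The list medians that follow stand beside medians over all genes tested of -0.11, -0.07 and 0.01 across MPPs, CD115- CDPs and CLPs.

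Among the activators of IRF3, IRF5 and IRF7, 2 of 17 tested genes were called lower in CLPs and 0 higher. Over all genes tested there, 2.84% and 0.673% were. Tlr9, the endosomal receptor for CpG DNA, was at 8.80 to 11.5 FPKM in WT and 0.530 to 1.07 in KO-labelled CLPs (log2 difference -2.59, limma adjusted p = 2.05e-05), and Unc93b1, which carries such receptors to endosomes, at 301 to 377 and 129 to 159 (-1.15, adjusted p = 0.000745). Of the 18 tested in MPPs 0 were called and 5 were lower at an unadjusted p under 0.05, or 27.8% against 19.8% of all genes (nearest Ddx58, -0.70, adjusted p = 0.0916). In CD115- CDPs 0 of 17 were called and 2 were lower unadjusted, or 11.8% against 5.99% of all genes. Tlr9 was nearest there (-1.46, limma adjusted p = 0.190) and was called with the block (adjusted p = 0.0248). The list's medians were -0.19, -0.14 and -0.04.

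Of the DNA-binding partners and cofactors, Spib was the 1 of 8 called in CLPs, where 2.84% of all genes were called lower. SPIB is an ETS factor of pDCs and B cells that binds composite sites with IRF4 and IRF8. It was at 120, 99.0 and 95.8 FPKM in WT and at 1.51, 2.17 and 1.97 in KO-labelled CLPs (log2 difference -5.20, SE 0.133, limma adjusted p = 5.37e-07). CD115- CDPs held it at 19.0, 11.9 and 12.04 against 2.90, 2.66 and 0.780 FPKM (-2.35, adjusted p = 0.134; with the block 0.00528, called). No partner was called in MPPs, where 1 of 9 was lower at an unadjusted p under 0.05, or 11.1% against 19.8% of all genes (Batf2, -0.60, adjusted p = 0.0818). The list's medians were -0.13, -0.25 and -0.09.

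Genes known to be induced by IRF8 in dendritic cells and phagocytes gave 3 calls of lower level among 10 tested in MPPs, 0 among 13 in CD115- CDPs and 7 among 12 in CLPs, and no call of a higher one. Over all genes tested, 1.32%, 0.0654% and 2.84% were called lower there. With the block 5 of 13 were called lower in CD115- CDPs, against 1.46% of all genes. Without it 7 were lower there at an unadjusted p under 0.05, against 5.99%. In CLPs the largest differences were those of Cybb, a subunit of the phagocyte oxidase (log2 difference -4.22), Siglech, a pDC surface receptor (-4.11), Ifi30, a lysosomal thiol reductase (-3.24), and Clec9a, a receptor of type 1 conventional dendritic cells (-2.21), with limma adjusted p from 2.73e-06 to 0.000119. In MPPs Ifi30, Cybb and Naaa were called, at -1.23, -1.20 and -1.12. Siglech in CD115- CDPs was at 80.3, 56.8 and 30.4 FPKM in WT and at 6.63, 10.4 and 3.05 in KO-labelled libraries (-2.90, adjusted p = 0.162; with the block 0.00262). The list's medians were -0.62, -1.21 and -1.29. Siglech is also one of the pDC markers summed above, and Clec9a and Xcr1 also mark type 1 conventional dendritic cells.

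Interferon-stimulated genes passed in both directions in CLPs. Of 20 tested, Bst2 (log2 difference -2.64, limma adjusted p = 3.08e-06) and Mx1 (-1.74, adjusted p = 0.00012) were called lower and 0 were called higher, while the adjusted p alone was passed by 4 as lower and 3 as higher. Over all genes in CLPs, 2.84% were called lower and 0.673% higher, and 8.92% and 5.41% passed the adjusted p alone. The listed genes that passed it without reaching the fold, named after their values were seen, were Usp18 (-0.98) and Mx2 (-0.86) downward and Gbp2 (0.87), Gbp3 (0.71) and Rtp4 (0.62) upward. The list's median in CLPs was 0.14. In MPPs Ifi44 (-1.51, adjusted p = 0.0190) and Oas2 (-1.16, adjusted p = 0.0374) were called lower, 6 of 20 passed the adjusted p as lower and the median was -0.57. There 1.32% of all genes were called lower and 3.52% passed the adjusted p as lower. In CD115- CDPs 0 of 20 were called and the median was 0.07. At an unadjusted p under 0.05, 2 were lower and 1 higher, against 733 and 555 of the 12229 genes tested. The nearest was Bst2 (-1.05, limma adjusted p = 0.107). With the block 1 of the 20 was called lower, Bst2 (limma adjusted p = 0.0138). Also with the block 1 was called higher, Cxcl10 (1.07, limma adjusted p = 0.0197). Over all genes tested, 1.46% were called lower and 0.376% higher with the block. Bst2 is a pDC marker as well.

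The MHC class I pathway genes, which carry sites for IRF1 and IRF2, were not called in any population. Of 8 tested, the nearest were Tapbp in CLPs (log2 difference -0.55, limma adjusted p = 0.0251), Tapbp in MPPs (-0.18, adjusted p = 0.253) and Psmb10 in CD115- CDPs (0.38, adjusted p = 0.660). At an unadjusted p under 0.05 there were 0 in MPPs, 0 in CD115- CDPs, and 1 each way in CLPs, and the medians were -0.15, 0.11 and -0.02. Of the 12339 genes tested in CLPs, 2003 were lower and 1652 higher at that p. Of the type I interferon genes themselves, Ifnb1 was at 0.2 to 0.27 FPKM in WT and at 0.59, 2.41 and 0.07 in KO-labelled MPPs (limma adjusted p = 0.382). In CD115- CDPs Ifnb1 was at 1, 1.75 and 0.54 FPKM in WT and at 3.72, 7.34 and 0.4 in KO-labelled libraries, which overlapped (log2 difference 0.90, SE 0.640, adjusted p = 0.679; named after its values were seen). Of the 3 tested in CD115- CDPs, 0 were called and 1 was higher at an unadjusted p under 0.05 (Ifna2, 0.62, limma adjusted p = 0.466). Over all 12229 genes tested there, 555 were higher at that p. In CLPs no type I interferon gene reached the filter.

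**Figure D5:**
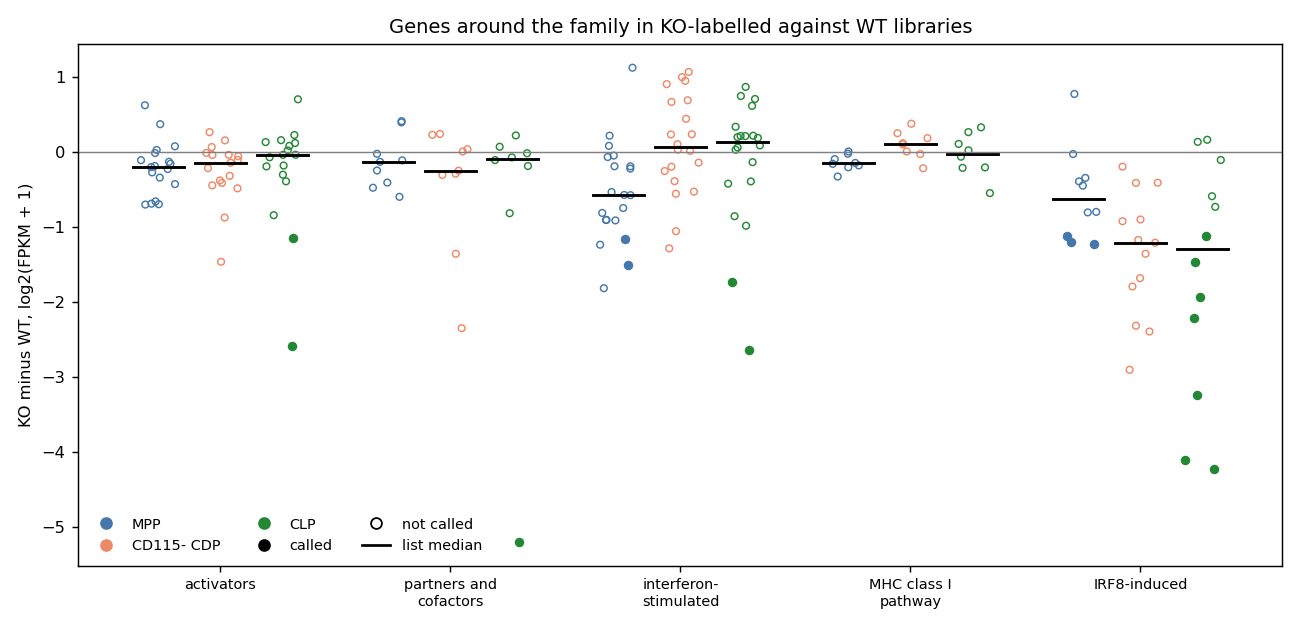
Difference between KO-labelled and WT libraries in log2(FPKM + 1) for every tested gene of 5 lists around the family, in MPPs, CD115- CDPs and CLPs; filled points were called and black lines are list medians. The lowest point is Spib in CLPs at -5.20, and the genes induced by IRF8 have medians of -0.62, -1.21 and -1.29.

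The genes whose levels ran most closely with each member were read as a description, by Pearson's r of log2(FPKM + 1) over the 18 libraries among 8525 genes averaging 5 FPKM or more. The libraries share 6 groups, so r mixes population, genotype and replicate number. Irf8 ran with Tmem229b (r = 0.99), Mpeg1 (0.98), a pore-forming protein of phagocytes, and Mapk7 (0.98). Irf5 ran with Ifi30 (0.95), B3gnt8 (0.93) and Anxa6 (0.93), and Irf7 with the interferon-stimulated Epsti1 (0.92) and with Tjp3 (0.92). Irf1 ran with Tsc22d1 (0.96), Sh3bp5l (0.95) and the stress factor Ddit3 (0.94), and Irf4 with Foxo1 (0.98), Cyth1 (0.96) and Syvn1 (0.95). Irf3 ran with Pmm2 (0.95), with Mavs (0.92), the mitochondrial adaptor upstream of IRF3, and with Smim14 (0.91). Irf2 ran with Cand2 (0.96), Agap2 (0.96) and Prkacb (0.96). Irf9 had the loosest matches, Rnf167 (0.88), Hist3h2ba (0.83) and Blvrb (0.83). Within the family the closest pairs were Irf7 and Irf9 (0.79), Irf3 and Irf8 (0.74) and Irf5 and Irf8 (0.73), and the most opposed were Irf1 and Irf3 (-0.66) and Irf2 and Irf4 (-0.64).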

How the data were processed

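RNA from sorted MPPs, CD115- CDPs and CLPs had been sequenced by the authors as single-end 50-base reads of poly-A RNA. Per the study's methods, reads were aligned to transcripts with Bowtie2 (version 2.2.5) and quantified with RSEM (version 1.2.12), and the authors deposited FPKM values per gene in one table for each population. HISAT2 (version 2.0.4) is also named in the submitters' notes. The CLP table leaves out genes at 0 in all 6 libraries. RSEM shares reads among transcripts and FPKM is scaled within each library, so a few abundant genes lower all others. No counts were used, so no interval for counting error can be given.

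KO-labelled and WT libraries were compared within each population with limma (version 3.58.1, R 4.3.3) on log2(FPKM + 1) with a trended variance, over genes averaging 0.5 FPKM or more; this scale understates the change of low genes. P-values were adjusted by Benjamini-Hochberg over all genes tested, and a gene was called where that p was 0.05 or lower and the log2 difference was 1 or more in size. WT populations and the interaction were fitted over all 18 libraries. The study's own tests take counts and were not used. The fit was tested on simulated data. Same-numbered libraries of the 2 genotypes deviated together in CD115- CDPs (correlation across genes 0.438 to 0.795) and CLPs (0.136 to 0.408), with every pair above 0.1. In MPPs they did not (0.024 to 0.481). Differently numbered libraries reached 0.674 in CD115- CDPs and 0.234 in CLPs, above the lowest same-numbered pair. The numbers therefore did not tell every pair apart, and blocked values rest on them. Blocked values between genotypes are given for CD115- CDPs. The blocked interaction also pairs the MPP libraries by number. Values for CLPs are unblocked, and the block changed no member's call there. P-values measure the spread between these libraries. Alternatives were another pseudocount, other filters, TPM, median ratio scaling, no trend, no minimum fold, the replicate block and leaving out each library. All 8 members are named, with the 3 genes most like each and, per list, up to 4 called genes with the largest difference, or else the gene with the smallest adjusted p. One of the genes so chosen, and the counts of the list of receptors and kinases that holds it, are not reported here. The members and lists were chosen with earlier results of these data known. Upstream sequences are from RefSeq (GRCm38.p6), and for all 11 windows the bases after the start were found in annotated transcripts on the stated strand.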

Additional observations from a re-analysis of the deposited data

How the results depend on the processing

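Fits without the replicates numbered 3, and the block with median ratio scaling, were chosen after seeing the data. In CLPs Irf8 and Irf7 stayed called under every alternative run. Of 1655 values of single members under alternatives, 1563 kept their direction and their side of the threshold, 31 newly passed, 5 no longer passed and 56 changed sign; no cause was tested.

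Genes called lower and higher between genotypes in MPPs (163 and 20) became 245 lower with a pseudocount of 0.1 and 245 with TPM, 65 and 9 with a mean of 5 FPKM or more, 436 and 39 with no minimum fold, 520 and 273 without both replicates 3, and ranged over 43 to 548 and 11 to 368 leaving out 1 library. The top of both ranges was reached without KO replicate 3. Members called were 2 lower with no minimum fold, 1 lower and 1 higher without both replicates 3, and 0 to 1 in each direction leaving out 1 library. In CD115- CDPs (8 and 5) they became 1 and 2 with no filter, 3 higher with a mean of 5 FPKM or more, 156 and 67 without both replicates 3 (1 member lower), and 0 to 5 and 0 to 7 leaving out 1 library (0 members). In CLPs (351 and 83) they became 148 higher with a pseudocount of 0.1, 228 and 55 with a mean of 5 FPKM or more, 1101 and 667 with no minimum fold, and 330 to 391 and 66 to 98 leaving out 1 library, with 2 to 3 members lower.

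Blocked on the replicate number (replicate block), CD115- CDPs had 178 genes lower and 46 higher with 2 members lower, and with median ratio scaling added 145 and 50 with 1 member lower (Irf8; Irf5 was no longer called). In MPPs, where the numbers did not pair the libraries, the block with median ratio scaling gave 82 lower; the block alone called 0 members. The interaction was passed by 1077 genes with the block and 304 without it. The block changed no other member's call between genotypes or WT populations, and 0 members passed the interaction with it.

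Between WT populations, CLPs against MPPs (601 lower, 480 higher) gave 296 and 299 with a mean of 5 FPKM or more, 1830 and 1301 with no minimum fold, 2 members higher without all replicates 3, and 533 to 632 and 441 to 502 leaving out 1 library. CD115- CDPs against MPPs (625 and 219) gave 982 lower with a pseudocount of 0.1, 287 and 139 with a mean of 5 FPKM or more, 1913 and 666 with no minimum fold (2 members lower), 563 higher without all replicates 3 (2 members lower and 2 higher), 0 members lower with median ratio scaling, and 556 to 950 and 172 to 482 leaving out 1 library, with 0 to 2 members lower and 1 to 2 higher. CD115- CDPs against CLPs (273 and 92) gave 174 and 56 with a mean of 5 FPKM or more, 460 lower with TPM, 935 and 388 with no minimum fold (2 members lower), 554 and 490 without all replicates 3 (2 members lower, 1 higher), and 202 to 468 and 57 to 301 leaving out 1 library, with 0 to 2 members lower. The interaction (304 genes, 0 members) gave 189 genes with a pseudocount of 0.1, 545 with no filter, 125 with a mean of 5 FPKM or more, 1917 without all replicates 3 (3 members, Irf1, Irf2 and Irf4), and 154 to 667 leaving out 1 library.

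Signs changed without the replicates numbered 3 for the genotype difference of Irf4 in CD115- CDPs (0.50) and CLPs (-0.028; -0.0002 with TPM), for Irf1 between WT CLPs and MPPs (-0.070), CD115- CDPs and MPPs (0.33; 0.041 with median ratio scaling) and CD115- CDPs and CLPs (0.40), and for Irf5 between WT CD115- CDPs and CLPs (-0.18). They also changed for differences of genotype effects between CD115- CDPs and CLPs of Irf3 (-0.033), Irf4 (0.53) and Irf5 (0.47; 0.016 with median ratio scaling) and between CD115- CDPs and MPPs of Irf5 (0.13), Irf8 (0.17) and Irf9 (0.018). Irf4 in MPPs gave no value with a mean of 5 FPKM or more.

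Leaving out 1 library also changed signs near 0. Between genotypes, the log2 difference ranged in CD115- CDPs from -0.25 to 0.034 for Irf2, from -0.30 to 0.004 for Irf3 and from -0.90 to 1.28 for Irf4, and in CLPs from -0.24 to 0.25 for Irf4. Between WT populations, Irf1 ranged from -0.040 to 0.24 for CLPs against MPPs, from -0.35 to 0.37 for CD115- CDPs against MPPs and from -0.41 to 0.31 for CD115- CDPs against CLPs, where Irf4 ranged from -0.32 to 1.06 and Irf5 from -0.14 to 0.46. Differences of genotype effects between CD115- CDPs and MPPs ranged from -0.52 to 0.47 for Irf1, -2.20 to 0.12 for Irf4, -0.51 to 0.084 for Irf5, -0.034 to 0.70 for Irf7, -0.74 to 0.27 for Irf8 and -0.17 to 0.12 for Irf9, and between CD115- CDPs and CLPs from -0.056 to 0.26 for Irf3, -0.93 to 1.24 for Irf4, -0.24 to 0.35 for Irf5 and -0.031 to 0.27 for Irf9.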
